A study of Mus musculus with 28 samples.

Results

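The unlabelled domain set of the series is a list of H3K9me2 domains whose name gives neither a cell type nor a treatment, and it was compared here with the set called from sorted mouse embryonic stem cells (mESCs) in DMSO. All domains of both sets on chromosomes 1 to 19 were taken, 6115 in the unlabelled set and 3870 in mESC DMSO, out of 31304 domains in the 5 sets of the series. The data were produced by ULI-NChIP, in which unfixed chromatin of few cells is immunoprecipitated, with the antibody ab1220 against H3K9me2, in cells of a BL6/129 hybrid background. In every group of the series, the endogenous Ehmt2 gene carries a degron (dTAG) and an mCherry reporter, so that the DMSO controls also hold the tagged protein.

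Of the groups of libraries, 2 bear on the comparison. Bulk cultures of the EHMT2-dTAG-mcherry line, kept in DMSO for 24 h, gave 2 immunoprecipitation and 2 input libraries. The sorted mESC DMSO group came from the EHMT2-dTAG-mcherry MERV-GFP line after 72 h in DMSO, as GFP-negative cells of 1 clone, with 3 immunoprecipitation and 3 input libraries. GFP in this line reports the 2-cell-like (2CLC) state, which few cells of a culture enter and in which genes of the 2-cell embryo are on. According to the labels, the retinoic acid receptor agonist TTNBP was present in 2 of the sorted replicates, which are not identified, whereas the methods of the study mention it for the sorted cells in general. The paper does not say from which libraries the unlabelled set was called. It describes domain calling from its ULI-NChIP data in the section where only bulk cultures have been introduced, and the other 4 sets bear the names of the 4 sorted conditions. Bulk mESCs after 24 h in DMSO are therefore a possible source of the unlabelled set, as an inference that the files do not settle. Cell line, time in DMSO, agonist and sorting would then all differ between both sets and cannot be told apart. The other sorted sets used below are 2CLC DMSO, mESC dTAG and 2CLC dTAG. In those named dTAG, the cells were kept for 72 h with dTAG-13, a compound that depletes the tagged EHMT2.

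H3K9me2 is a histone mark of repressed chromatin that the EHMT1/EHMT2 enzyme pair deposits over broad stretches outside the pericentromeric heterochromatin. In mESCs, it lies over gene-poor, repeat-rich sequence and over clusters of tissue-restricted gene families, whereas most active promoters with many CG dinucleotides lack it. EHMT2 also keeps genes of the 2-cell stage and of the germline silent in these cells.

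The promoters of 4 genes that the comparison places differently are shown first, printed from RefSeq on GRCm38.p6 with every CG dinucleotide in capitals. Each runs 5′ to 3′ on the strand of its gene, from 250 bases before the RefSeq start to 50 bases from it. The window of Zscan4d, a zinc finger gene of the 2-cell stage (chr7:11166099-11166398, minus strand), lay wholly in a domain of both sets and holds 3 CG. Those of Klf4, a pluripotency transcription factor (chr4:55532426-55532725, minus strand), and Sp110, a nuclear body protein (chr1:85598761-85599060, minus strand), lay wholly in a domain of the unlabelled set and in none of mESC DMSO, and hold 40 and 5 CG. That of Kdm4c, a demethylase of H3K9 (chr4:74242247-74242546, plus strand), lay in a domain of mESC DMSO only and holds 0 CG. The start of Klf4 lay 2.13 kb from the end of its unlabelled domain, less than the 5 kb step of the calls.
Zscan4d: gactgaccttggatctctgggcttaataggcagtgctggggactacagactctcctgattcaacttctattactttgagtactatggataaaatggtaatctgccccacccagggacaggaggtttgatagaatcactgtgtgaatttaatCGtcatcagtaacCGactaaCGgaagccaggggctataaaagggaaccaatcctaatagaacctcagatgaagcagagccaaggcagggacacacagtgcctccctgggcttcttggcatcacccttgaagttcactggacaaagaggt
Klf4: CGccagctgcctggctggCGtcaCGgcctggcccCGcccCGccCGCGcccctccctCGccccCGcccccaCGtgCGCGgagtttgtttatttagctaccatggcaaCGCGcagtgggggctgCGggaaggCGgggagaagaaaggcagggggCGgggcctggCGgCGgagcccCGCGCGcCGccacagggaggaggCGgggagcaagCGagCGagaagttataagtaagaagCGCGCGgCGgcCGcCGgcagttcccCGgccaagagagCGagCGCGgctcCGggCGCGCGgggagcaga
Sp110: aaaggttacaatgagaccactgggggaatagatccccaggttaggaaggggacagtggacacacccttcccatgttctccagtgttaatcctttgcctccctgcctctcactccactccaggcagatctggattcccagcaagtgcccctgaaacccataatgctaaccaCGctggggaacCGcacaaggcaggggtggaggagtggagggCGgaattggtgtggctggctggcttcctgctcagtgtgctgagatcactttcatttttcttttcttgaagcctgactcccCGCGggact
Kdm4c: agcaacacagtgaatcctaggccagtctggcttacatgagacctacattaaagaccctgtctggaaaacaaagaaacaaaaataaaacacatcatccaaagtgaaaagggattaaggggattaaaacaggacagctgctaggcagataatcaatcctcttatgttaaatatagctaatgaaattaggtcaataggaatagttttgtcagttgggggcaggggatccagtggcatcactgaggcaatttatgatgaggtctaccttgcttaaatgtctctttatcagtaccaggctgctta

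Each set is 1 list for a whole condition, with no value for any library, so the spread between cultures could not be computed and no difference below was tested. Shares of domains and genes carry Wilson 95% intervals, which cover counting only. The lowest and highest chromosome are given as the spread along the genome, not as replicate error. The number of reads behind either set is unknown.

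To see how far both sets cover the same genome, their domains were first compared in number and width. The unlabelled set covered 1559 Mb of chromosomes 1 to 19, which is 63.3% of their 2463 Mb, and mESC DMSO covered 1290 Mb or 52.4%. The unlabelled set held more domains and covered more bases on 19 of 19 chromosomes. It was also the more finely divided set. Of its gaps between neighbouring domains, 2199 of 6096 (36.1%) were 1 bin of 5 kb wide, the smallest step of the calls, against 961 of 3851 (24.95%) in mESC DMSO. The medians of domain width lay close together, at 150 kb in the unlabelled set and 145 kb in mESC DMSO, with the unlabelled median the larger on 11 chromosomes. Their order turned when only domains of at least 50 kb were kept, where the ratio of the medians went from 0.967 to 1.05.

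What separated the widths were the widest domains, as the plot of domains by width shows. Domains of 1 Mb or more, with widths rounded to whole bins of 5 kb, numbered 211 in the unlabelled set and held 18.1% of its bases. In mESC DMSO, 296 such domains held 42.1% of the bases. The widest unlabelled domain spanned 3045 kb and the widest mESC DMSO domain 5910 kb.

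**Figure D1:**
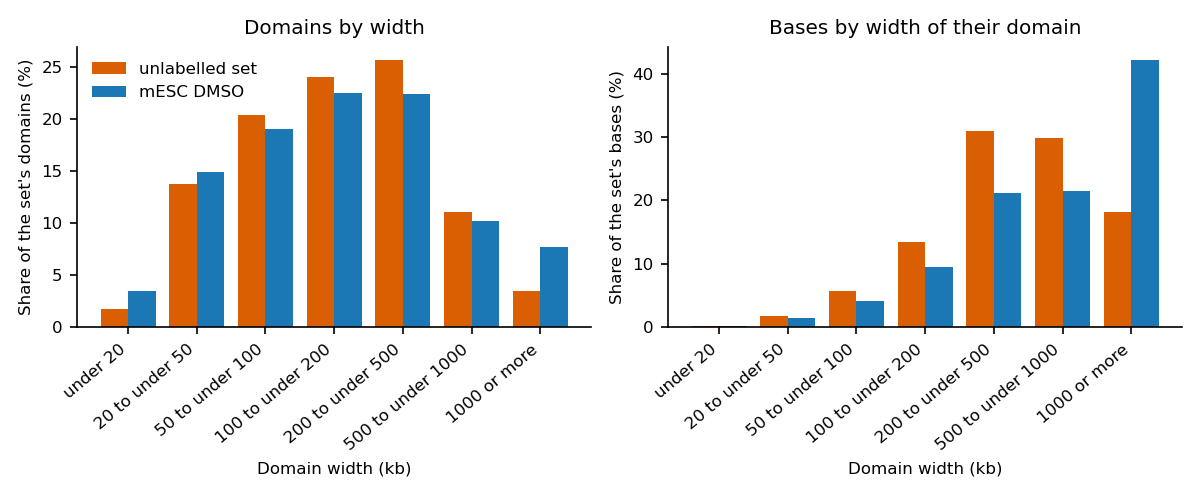
Share of domains (left, %) and share of bases (right, %) by domain width in kb on chromosomes 1 to 19, for the unlabelled set (orange) and mESC DMSO (blue). The domains of 1000 kb or more hold 18.1% of the bases of the unlabelled set and 42.1% of those of mESC DMSO.

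The widest unlabelled domain (chr8:18954046-21999043) held 64 protein-coding gene starts, beginning with Defb40, Defb37, Defb38, Defb39 and Defb12, genes for the antimicrobial beta-defensins. It was 99.5% covered by 2 domains of mESC DMSO. The next widest (chr14:41091347-43806344, 2715 kb) held 57 gene starts, among them Sftpa1 and Sftpd, which encode surfactant proteins of the lung, and Mbl1, a mannose-binding lectin. The widest mESC DMSO domain (chr1:112390060-118300051) held 8 gene starts, the first of them Cntnap5a, a neuronal adhesion gene, and was 99.2% covered by 6 unlabelled domains. In these places the sets covered the same sequence and differed in where they were cut.

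The next question was how much of each set lies in the other. Shared bases came to 1211 Mb, which is 77.7% of the unlabelled set and 93.9% of mESC DMSO, and the Jaccard index, the shared bases over the bases in either set, was 0.740. By chromosome, the share of the unlabelled set in mESC DMSO ran from 69.8% on chromosome 13 through a median of 77.6% to 84.5% on chromosome 4. The share of mESC DMSO in the unlabelled set ran from 88.3% on chromosome 7 through 94.0% to 97.9% on chromosome 8. It was the larger share on 19 of 19 chromosomes, which follows from coverage, since both shares divide the same bases and mESC DMSO covered less on each. The unlabelled set took in 93.9% of the bases of mESC DMSO and added bases of its own. Bases in the unlabelled set only came to 348 Mb, and bases in mESC DMSO only to 78.4 Mb. For scale, the Jaccard index of mESC DMSO with 2CLC DMSO, which was sorted from the same line, was 0.826, and on each of the 19 chromosomes it was above that of mESC DMSO with the unlabelled set. The index cannot exceed the ratio of the smaller to the larger set, which was 0.827 for mESC DMSO and the unlabelled set. On some chromosomes, such as 19 (0.733 against 0.748), this limit lay below the index with 2CLC DMSO, so coverage alone fixed the order there.

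**Figure D2:**
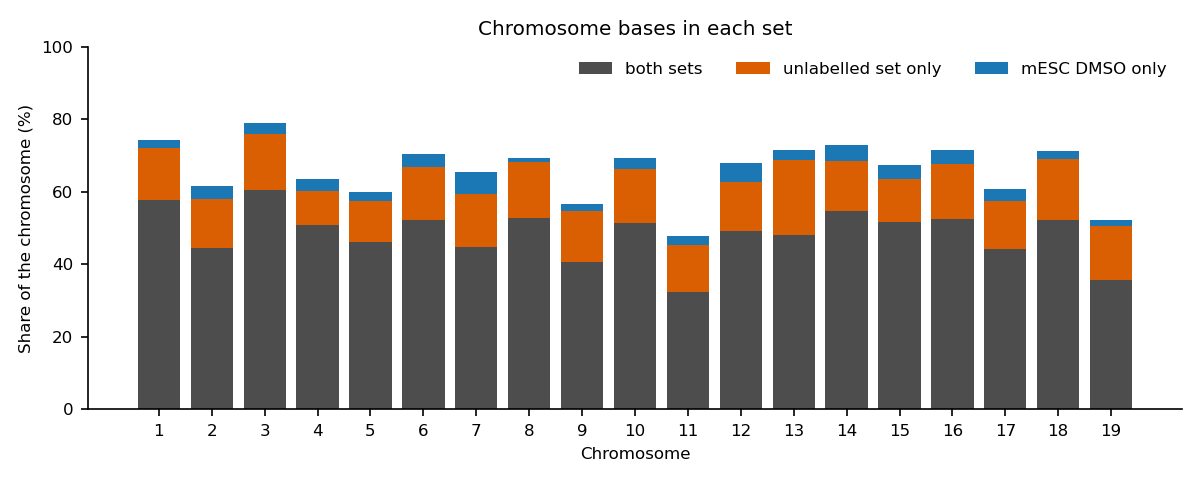
Share of each chromosome (%) in both sets (dark grey), in the unlabelled set only (orange) and in mESC DMSO only (blue), for chromosomes 1 to 19. The orange part exceeds the blue part on every chromosome, since the unlabelled set covers more on 19 of 19.

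Domains were then grouped by which overlap which. A pair of 1 unlabelled and 1 mESC DMSO domain with no other overlap occurred 919 times, and these pairs held 13.8% of the bases of the unlabelled set and 12.4% of mESC DMSO. In 266 groups, 1 mESC DMSO domain met several unlabelled domains, 859 in all. The opposite was the case in 387 groups, in which 1 unlabelled domain met several of 968 mESC DMSO domains. The remaining overlaps were more tangled. In 467 groups, several domains of each set chained together (2006 unlabelled and 1392 mESC DMSO domains), with 45.5% of the bases of the unlabelled set and 54.4% of mESC DMSO.

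Fusion ran in both directions. Of the unlabelled domains, 1082 (17.7%, 16.8 to 18.7) held parts of 2 or more mESC DMSO domains, and of the mESC DMSO domains, 975 (25.2%, 23.9 to 26.6) held parts of 2 or more unlabelled domains. The second share depended on narrow gaps, and it was 10.4% after the domains of each set had been joined across gaps of at most 20 kb, where the first was 15.8%. When a domain was counted only where at least 50% of it lay inside, the shares were 10.7% and 15.0%.

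The mESC DMSO domains with the most unlabelled pieces lay in gene-poor sequence. Parts of 17 unlabelled domains lay in each of 4 of them, and these 4 were 80.2% to 96.6% covered by the unlabelled set. The first (chr1:106820067-112385059, 5565 kb) held 14 gene starts led by Serpinb5, Serpinb12 and Serpinb13, protease inhibitors of a clustered family. The second (chr5:54196222-59626214, 5430 kb) held a single start, that of Pcdh7, a protocadherin of the nervous system. The other two held 2 gene starts each, including that of Slitrk1, which encodes a neuronal membrane protein. In the opposite direction, the highest number was 9 mESC DMSO domains in 1 unlabelled domain (chr13:39398091-40708089, 1310 kb), which held the start of Ofcc1. An unlabelled domain over the start of Rbms3, which encodes an RNA-binding protein (chr9:116177639-118027637), took in 8 mESC DMSO domains, and 89.5% of it was shared.

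Where domains matched as single pairs, the unlabelled domain mostly reached further out. Of the 1838 boundaries of the 919 pairs, 31.9% lay within 1 bin of each other. The unlabelled domain extended further by more than 1 bin at 56.4%, and the mESC DMSO domain at 11.8%. In 719 pairs (78.2%) the unlabelled domain was the wider one, with a median of 160 kb against 100 kb.

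Sequence in 1 set only was divided into whole domains with no shared base, edges that extend a shared domain, and bridges that fill a gap between domains of the other set. Of the unlabelled domains, 1944 (31.8%, 30.6 to 33.0) shared no base with mESC DMSO. They had a median width of 70 kb and made up 175 Mb, or 50.5% of the bases in the unlabelled set only. Edges made up 138 Mb and bridges 34.6 Mb. The make-up of mESC DMSO was different, with bridges as the larger part. Only 325 of its domains (8.40%, 7.56 to 9.31) shared no base with the unlabelled set, with a median width of 30 kb and 14.3 Mb in all. Its bridges made up 39.3 Mb, or 50.2% of the bases in mESC DMSO only, and 1361 of the 2132 were 1 bin wide. Among domains of at least 50 kb, the share of mESC DMSO domains with no unlabelled base was 3.58%.

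The widest unlabelled domain without a shared base (chr1:84885646-85790644, 905 kb) held 9 gene starts, of which Slc16a14, Gm10553, A530032D15Rik, C130026I21Rik and G530012D18Rik come first and Sp110, whose promoter is printed above, is another. The mESC DMSO domain nearest to the start of Sp110 lay 879 kb away. 2CLC DMSO covered 82.9% of this domain, and mESC dTAG and 2CLC dTAG covered 0. Repeated sequence is common there, with 41.8% of its 50-base words found more than once on the chromosome. The other 4 widest held few genes. Among them were the start of Mfhas1 and of Cldn23, which encodes a claudin of tight junctions, both in the domain chr8:35499032-36089031 (590 kb), and that of Gm4791 in chr9:46737699-47367697 (630 kb).

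The widest mESC DMSO domain without a shared base (chr14:93341023-93876021, 535 kb) held no protein-coding start, and 2CLC DMSO covered 99.1% of it. The next (chr15:20573710-20868708, 295 kb) held the start of Acot10, a thioesterase gene. The third (chr17:16906992-17181991, 275 kb) held those of Zfp960 and Zfp97, which belong to the zinc finger family.

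The 5 widest edges in the unlabelled set only held 6 gene starts in all. The first (chr4:127380275-128279447, 899 kb) held the start of Csmd2, a gene for a large membrane protein of the brain, with those of CK137956 and Hmgb4. The second (chr9:49542696-50241557, 699 kb) held the start of Ncam1, the neural cell adhesion molecule, and another (chr16:9564901-10060248, 495 kb) that of Grin2a, an NMDA receptor subunit. The remaining edges held the start of Clic5, a chloride channel gene, and no gene start. The gene body of Grin2a lay wholly in an unlabelled domain of 1145 kb, and none of it lay in mESC DMSO. The 2 widest bridges in the unlabelled set only were rich in repeated sequence. The first (chr5:14901274-15721272, 820 kb) held 10 gene starts, Speer4e among them, and the second (chr14:5961140-6476138, 515 kb) held 13. The share of 50-base words that recur on the chromosome was 53.9% and 81.6%, and at most 2.30% in the bridges ranked 3 to 5.

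The widest edge and the 2 widest bridges in mESC DMSO only lay in tandem gene clusters. The edge (chr2:174942745-177163428, 2221 kb) held 31 gene starts beginning with Gm14444, Gm14393, Gm14399, Gm14443 and Gm14391, and 6 named zinc finger genes from Zfp968 to Zfp973. The first bridge (chr7:21140628-23285625, 2145 kb) held 52 gene starts, of which 28 are vomeronasal type 1 receptors from Vmn1r123 to Vmn1r166. The second bridge (chr7:7495639-8350638, 855 kb) held 7 vomeronasal type 2 receptors from Vmn2r33 to Vmn2r43. These stretches consist largely of repeated sequence, and the share of 50-base words that recur on the chromosome was 77.3% in the first, 94.9% in the second and 89.0% in the third. All of both bridges lay in domains of 2CLC DMSO, mESC dTAG and 2CLC dTAG as well, so that all 4 sorted sets covered them and the unlabelled set did not. How reads were assigned within repeats in each set, and its part in this difference, was not tested.

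**Figure D3:**
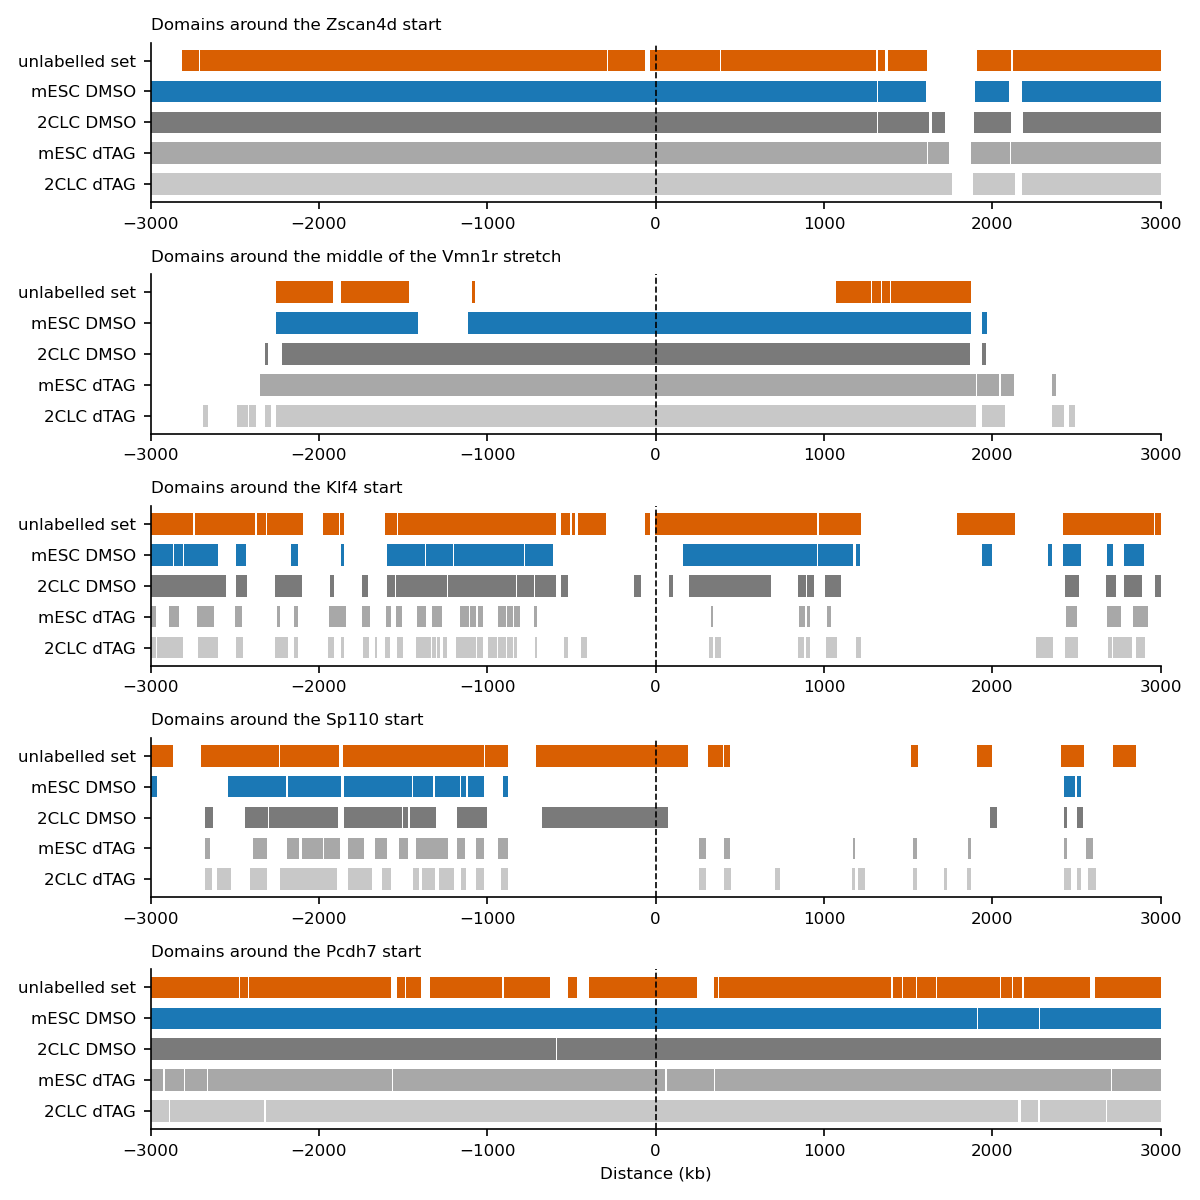
Domains of the 5 sets within 3000 kb of 4 gene starts and of the middle of the widest mESC DMSO bridge, by distance in kb, with the unlabelled set in orange, mESC DMSO in blue and the other sorted sets in grey. The Vmn1r stretch of 2145 kb is empty in the unlabelled set alone, the Klf4 start lies in an unlabelled domain of 960 kb with none of the sorted sets, and the Pcdh7 start lies in a domain of mESC DMSO that holds parts of 17 unlabelled domains.

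The set-specific bases were then looked up in the other sorted sets. These share line and preparation with mESC DMSO, which defines both classes, so a contrast between the classes was partly fixed in advance. Of the bases of mESC DMSO, 88.2% lay in 2CLC DMSO, 77.2% in mESC dTAG and 78.3% in 2CLC dTAG. Of the bases in the unlabelled set only, 66.6% lay in none of 2CLC DMSO, mESC dTAG and 2CLC dTAG, and 5.36% lay in all 3. Of those in mESC DMSO only, 5.32% lay in none and 67.3% in all 3. The latter value is close to that of the bases in both sets, of which 68.3% lay in all 3. For bases in neither set, 89.0% lay in none of them. By kind, the share in none was 73.6% for whole unlabelled domains, 63.9% for edges and 42.4% for bridges.

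Counted by domain, 1037 of the 1944 unlabelled domains with no mESC DMSO base (53.3%, 51.1 to 55.6) touched none of the other sorted sets. The 2CLC DMSO set touched 311 of them (16.0%), mESC dTAG 555 (28.5%) and 2CLC dTAG 781 (40.2%). Of the 325 mESC DMSO domains with no unlabelled base, 26 (8.00%, 5.52 to 11.5) touched none. The 4 sorted sets come from the same line and the same kind of preparation, and the unlabelled set may not, so cell line, preparation and calling cannot be told apart here. Among the sorted sets, mESC dTAG and 2CLC dTAG come from cells depleted of EHMT2.

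Base composition, which the overlap did not use, also differed between the classes. Bases in both sets had a G+C content of 39.5%, and those in mESC DMSO only were close to it at 38.9%. Bases in the unlabelled set only had 43.6% and lay nearer to those in neither set, at 45.4%. On 19 of 19 chromosomes, the G+C content of the unlabelled-only bases was above that of the shared bases and below that of the bases in neither. CG dinucleotides came to 6.18 per kb in both, 6.73 in mESC DMSO only, 9.43 in the unlabelled set only and 12.0 in neither, with the unlabelled set only again between shared bases and neither on 19 of 19 chromosomes. Repeats went the other way. Soft-masked repeat bases made up 38.5% of the shared bases, 43.6% of those in mESC DMSO only and 26.3% of those in the unlabelled set only, and mESC DMSO only was above the unlabelled set only on 19 of 19 chromosomes. The share of 50-base words that recur on the same chromosome was 10.3%, 20.9% and 4.10% in that order, and it was 3.67% in neither. In the 36 stretches of mESC DMSO only of at least 200 kb it was 47.7%, against 14.7% in the narrower ones. The part that base composition and repeats play in the calls was not tested.

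**Figure D4:**
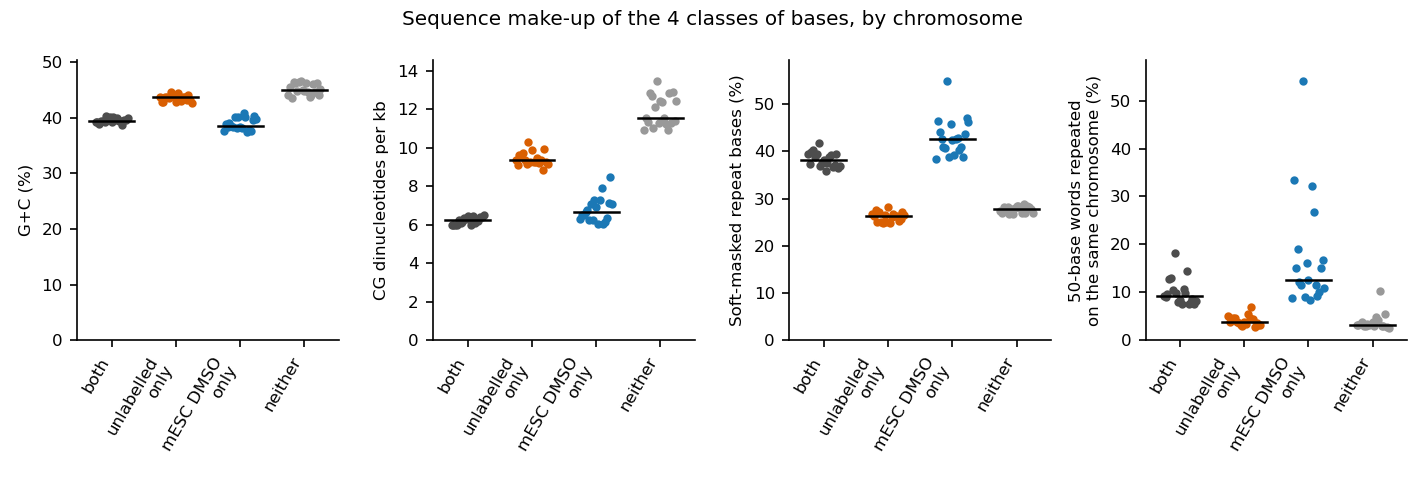
G+C content (%), CG dinucleotides per kb, soft-masked repeat bases (%) and 50-base words found more than once on the same chromosome (%), for bases in both sets, in either set only and in neither. Each point is 1 of 19 chromosomes and the line is their median. The unlabelled-only points for G+C lie between those of the shared bases and of the bases in neither on 19 of 19 chromosomes.

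The bins that split domains were also compared with the bins beside them. The 784 gaps of 1 bin in mESC DMSO that the unlabelled set bridged held 15.1 gene starts per Mb, against 7.91 in the bins next to them, and 7.98 against 6.92 CG per kb. The 1361 gaps of 1 bin in the unlabelled set that mESC DMSO bridged held 5.00 against 4.19 gene starts per Mb, and 12.1% against 9.35% repeated 50-base words. Gene starts were thus denser in the cut bins than beside them for either set, with the wider difference where mESC DMSO alone was cut. These densities rest on 3.92 Mb against 7.84 Mb there, and on 6.805 Mb against 13.61 Mb for the unlabelled set. They carry no interval and were not tested.

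To learn which genes the choice of set moves, gene starts were assigned to the sets. Of 20807 protein-coding genes on chromosomes 1 to 19, 6208 (29.8%, 29.2 to 30.5) started in an unlabelled domain and 4453 (21.4%, 20.8 to 22.0) in an mESC DMSO domain. Both sets held 3985 (19.2%), the unlabelled set only 2223 (10.7%), mESC DMSO only 468 (2.25%), and neither set 14131 (67.9%). These shares are the background for the lists below. Genes in the unlabelled set only were longer, with a median of 28.2 kb against 9.22 kb for genes in both and 14.3 kb for those in mESC DMSO only. Of genes of 500 kb or longer, 67.4% started in the unlabelled set and 46.8% in mESC DMSO, and of those under 10 kb, 37.2% and 31.3%. Long noncoding RNA genes showed the widest difference among the gene types, with 59.5% of 5209 lincRNA genes in the unlabelled set and 39.0% in mESC DMSO. Unprocessed pseudogenes, which arise by duplication, were the type with the reverse order, at 78.1% and 79.9% of 1789.

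Gene starts in the unlabelled set only had CG-richer promoters than the shared ones. Over the 300 bases around each GENCODE start, the median number of CG was 8 for the unlabelled set only, 2 for both, 3 for mESC DMSO only and 17 for neither. At least 10 CG were present in 999 of 2221 (45.0%, 42.9 to 47.1), 515 of 3985 (12.9%, 11.9 to 14.0), 116 of 467 (24.8%, 21.1 to 28.95) and 9711 of 14129 (68.7%, 68.0 to 69.5), and in 54.5% of all 20802 windows. Of the promoters printed above, Klf4 with 40 CG lay above and Sp110 with 5 CG below the median of 8 for the unlabelled set only.

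Of the 2223 starts in the unlabelled set only, 1340 (60.3%) lay in none of the other sorted sets, whereas this held for 40 of the 468 (8.55%) in mESC DMSO only. For the 3985 shared starts it was 248 (6.22%).

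Gene families of the 2-cell stage were the same in both sets. All 5 Zscan4 genes, all 7 Obox homeobox genes, all 5 Tdpoz genes and all 5 Usp17l deubiquitinase genes started in both, where the background is 19.2%. The domains around them differed in width. Zscan4c and Zscan4d started in separate unlabelled domains of 220 kb and 420 kb, and in the same mESC DMSO domain of 5275 kb (chr7:7204653-12479645). Gm21761, a gene that the study tested on its own, started in 110 kb and 65.0 kb. The genes of a family are near-identical neighbours and do not count as independent cases, since reads can be assigned to any copy.

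Of 11 Pramel and Pramef genes, which form clusters expressed in early embryos and germ cells, 9 started in both. Pramel1 started in the unlabelled set only, 15.0 kb outside an mESC DMSO domain of 1015 kb, and Pramef12 in mESC DMSO only, 1.80 kb outside an unlabelled domain. It was the same domain of mESC DMSO of 1015 kb in both cases. Among 10 other 2-cell genes, Zfp352, Tcstv3 and Gm21761 started in both, Sp110 and Spz1 in the unlabelled set only, and 5 in neither. Dppa2 and Dppa4, neighbouring genes for factors that activate 2-cell genes, started outside both sets. The start of Dppa4 lay 3.52 kb from an unlabelled domain of 1640 kb and 28.9 kb from an mESC DMSO domain of 490.0 kb. The first distance is below the 5 kb step of the calls. Of the other sorted sets, 2CLC DMSO, mESC dTAG and 2CLC dTAG each held the start of Dppa4, and mESC dTAG alone that of Dppa2.

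Of 20 genes of H3K9 methylation, 17 were in neither set, where the background is 67.9%. These included Ehmt1, Ehmt2, Trim28 and Wiz, whose products form or recruit repressive complexes. Atf7ip, a partner of the methyltransferase SETDB1, started in both. The demethylase genes Kdm3a and Kdm4c were split between the sets. The start of Kdm3a lay 0.731 kb inside the end of an unlabelled domain of 70.0 kb, with the nearest mESC DMSO domain 927 kb away, and that of Kdm4c lay 7.02 kb inside an mESC DMSO domain of 2050 kb. The distance for Kdm3a is below the 5 kb step of the calls. Ehmt2 had 45.5% of its body in an mESC DMSO domain of 10.0 kb and none in the unlabelled set. Zfp462, which encodes a zinc finger protein that works with EHMT2, started outside both, with 63.7% of its body in the unlabelled set and 0 in mESC DMSO.

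Pluripotency genes lay outside both sets in 18 of 19 cases, Pou5f1 among them, against the 67.9% of all genes. The exception was Klf4, whose start lay 2.13 kb inside the end of an unlabelled domain of 960 kb (chr4:55530336-56490334), which covered 40.03% of the gene. The nearest mESC DMSO domain lay 162 kb from it, and none of the other 3 sorted sets held the start. Of 20 germ layer regulators, 19 were in neither, and Sox17, an endoderm factor, started in the unlabelled set only, 1.64 kb inside its domain. Epcam, an epithelial adhesion gene, was in neither. For germline genes, Asz1, of the piRNA pathway, started in both, Dazl, a translation regulator of germ cells, and Slc25a31, a mitochondrial carrier of the testis, in the unlabelled set only, and the remaining 17 of 20 in neither. Dazl also lay near an end, with its start 1.27 kb inside an unlabelled domain of 520.0 kb and 8.31 kb outside an mESC DMSO domain. Of the other sorted sets, 2CLC DMSO and 2CLC dTAG held the start of Sox17, and mESC dTAG that of Dazl. For Klf4, Sox17 and Dazl, the distance to the end of the unlabelled domain is below the 5 kb step of the calls. The calls thus do not settle whether these starts lie inside.

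Most imprinted genes (12 of 17) and retinoic acid genes (15 of 20) started in neither set, where the background is 67.9%. In the unlabelled set only there were 4 of the 17 and 3 of the 20, against 10.7% of all genes. Lists of this size do not settle whether either departs from the background. Among 17 imprinted genes, Sgce, Peg10, Zim1 and Plagl1 were in the unlabelled set only and Snrpn, a splicing protein gene, was in both. Sgce and Peg10 are neighbours and shared 1 unlabelled domain of 175 kb, with an mESC DMSO domain 19.2 kb and 19.1 kb away. Both also started in domains of 2CLC DMSO, mESC dTAG and 2CLC dTAG, so these starts are not particular to the unlabelled set. Zim1 started in 2CLC DMSO as well, and 73.0% of its body lay in mESC DMSO. Plagl1 started in mESC dTAG as well. Among 20 retinoic acid genes, those in the unlabelled set only included Rxrg, a nuclear receptor gene, and Aldh1a3, a retinoic acid synthase gene. Rarb, a retinoic acid receptor gene, and Aldh1a1 were in both. The agonist of these receptors is named for the sorted cells only, and its part in these calls was not tested.

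Long neuronal genes were split, with 8 of 20 (40%) in both, 4 (20%) in each set only and 4 (20%) in neither. The background is 19.2% in both, 10.7% in the unlabelled set only, 2.25% in mESC DMSO only and 67.9% in neither. Among those in 1 set only, the starts of Dlg2, Csmd1, Lsamp, Pcdh15 and Robo2 lay less than 5 kb from a domain end that decides their set. This distance is below the step of the calls, so the set of these starts is not settled. Dlg2, a synaptic scaffold gene, started in the unlabelled set only, yet 98.5% of its body lay in the unlabelled set and 97.1% in mESC DMSO. The same held for Lsamp, a neuronal adhesion gene, with 98.9% and 97.2%. A start in 1 set only thus did not mean a body in 1 set only. The bodies of Csmd3, in the unlabelled set only by its start, and Cdh12, in mESC DMSO only, differed more, with 61.2% and 58.8% in the unlabelled set against 91.5% and 97.8% in mESC DMSO. Those of Dscam and Robo1 went the other way, with 98.2% and 88.5% in the unlabelled set against 55.0% and 61.4% in mESC DMSO. Of 40 glutamate and GABA receptor genes, 13 (32.5%) started in both, 6 (15.0%) in the unlabelled set only, 2 (5.00%) in mESC DMSO only and 19 (47.5%) in neither. A list of this size does not settle whether the 15.0% and 5.00% depart from the 10.7% and 2.25% of all genes. The starts of Gabra2 and Gria4, in the unlabelled set only, lay 0.350 kb and 0.384 kb outside an mESC DMSO domain, less than the 5 kb step.

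**Figure D5:**
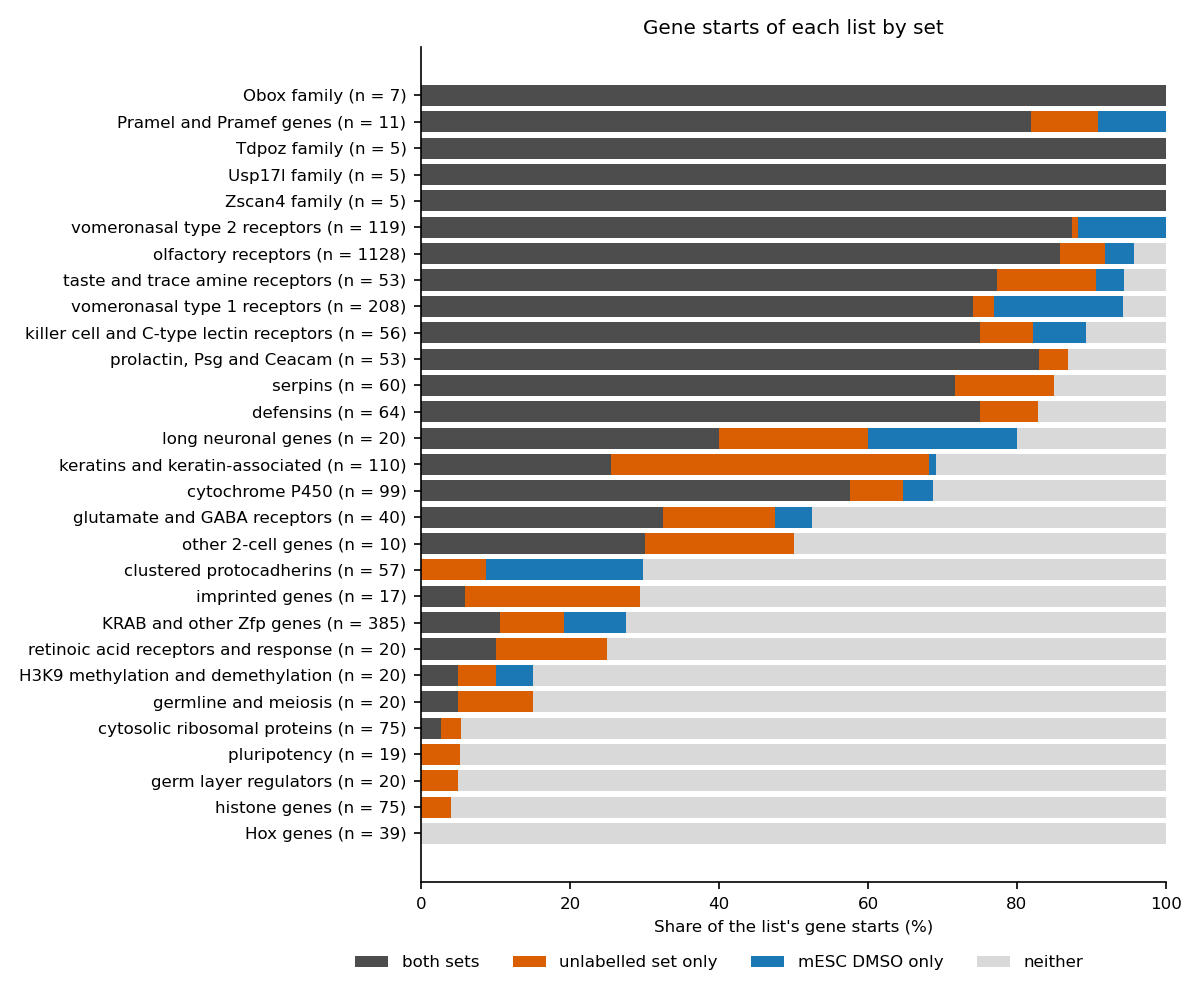
Share of the gene starts of each list (%) in both sets (dark grey), in the unlabelled set only (orange), in mESC DMSO only (blue) and in neither (light grey), with the number of genes in brackets. Keratin genes carry the widest orange part, with 47 of 110 genes, and vomeronasal type 1 receptors a wide blue part, with 36 of 208.

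Of the larger clustered families, chemosensory receptors lay mostly in both sets. Of 1128 olfactory receptor genes, 967 started in both, 69 in the unlabelled set only and 43 in mESC DMSO only. For vomeronasal type 1 receptors, which detect pheromones, the counts were 154, 6 and 36 of 208, and for type 2 receptors 104, 1 and 14 of 119. The chromosome 7 bridges described above held 28 of the 36 type 1 and 7 of the 14 type 2 receptors in mESC DMSO only, whereas the 43 olfactory receptors lay in 31 stretches. Taste and trace amine receptors had 41, 7 and 2 of 53, and the 7 in the unlabelled set only lay in 1 edge on chromosome 10 from Taar7d to Taar9.

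Keratin and keratin-associated genes, which encode proteins of epithelia and hair, went the other way. Of 110 genes, 28 started in both, 47 in the unlabelled set only and 1 in mESC DMSO only. The 47 lay in 11 stretches, and 16 of them were in a single edge (chr11:99934701-100204810, 270.1 kb) from Krtap31-2 to Krt9. This edge had a G+C content of 46.5% and 1.96% repeated 50-base words, in contrast to the vomeronasal stretch with 40.9% and 94.9%. Krtap16-3 was the gene in mESC DMSO only, in a bridge of 1 bin.

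Clustered protocadherins, cell-surface proteins with alternative first exons, were the list with starts in each set and 0 in both. Of 57 genes on chromosome 18, 40 (70.2%) started in neither set, close to the 67.9% of all genes. In the unlabelled set only there were 5 (8.77%) and in mESC DMSO only 12 (21.1%), against 10.7% and 2.25% of all genes. The 5 lay in 2 stretches and the 12 in 2 stretches of this cluster, so they do not count as independent cases. Pcdha1 to Pcdha4 lay in an edge of 30.5 kb in the unlabelled set only, and Pcdha5 to Pcdha12 next to it in an mESC DMSO domain of 130.0 kb with no unlabelled base. Of 385 zinc finger genes named Zfp, 41 (10.6%) started in both, 33 (8.57%) in the unlabelled set only and 32 (8.31%) in mESC DMSO only, against 19.2%, 10.7% and 2.25% of all genes. Those in 1 set only were spread over 29 and 23 stretches, and 6 of the 32 lay in the chromosome 2 edge described above.

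The remaining families were shared, or were in neither set. Serpins (43 of 60 in both, 8 in the unlabelled set only), defensins (48 of 64, 5), cytochrome P450 genes (57 of 99, 7), killer cell and C-type lectin receptors (42 of 56, 4) and prolactin, Psg and Ceacam genes (44 of 53, 2) started mostly in both. In mESC DMSO only there were 4 cytochrome P450 genes and 4 lectin receptors, and 0 in each of the other 3 families. Hox genes lay in neither set in 39 of 39 cases. Of 75 histone genes, 72 were in neither and 3 in the unlabelled set only, namely H2afz, a histone variant, and the testis histones Hist1h2aa and Hist1h2ba. Of 75 cytosolic ribosomal protein genes, 71 were in neither. Rpl10l and Rpl39l, which are copies expressed in testis, were in both, and Rps12 and Rps23 in the unlabelled set only.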

How the data were processed

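H3K9me2 was profiled by ULI-NChIP in 28 libraries, 14 of them immunoprecipitations, and the deposited files compared here hold positions of domains (chromosome, start and end) for 5 sets, with no column of values per sample. According to the methods of the study, the authors aligned reads with STAR in a mode that keeps reads from repeats, removed duplicates and high-signal regions, scaled coverage with chromosomes X and M ignored, took the log2 ratio of immunoprecipitation to input in sliding windows, and called domains from a high percentile extended to a lower one. The methods state 1 pair of percentiles for all domain calling. Whether they were taken within each set, and whether replicates were pooled, is not given in the sources used here. The submitters' processing notes name STAR 2.7.10, SAMtools 1.14, Picard 2.26.0, deepTools 3.5.1, bedtools 2.30.0 and R 4.1.2, and the build mm10, of which GRCm38.p6 has the same chromosome sequences.

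Positions were read as deposited, written 1-based, and compared base by base on chromosomes 1 to 19. The bin grids of both sets are offset by 29 to 1144 bases (median 492). Overlap required 1 shared base. Genes were those of GENCODE M21, assigned by their start. Sequence values came from GRCm38.p6, and a 50-base word counted as repeated where its chromosome holds it again on that strand, with words sampled at regular steps. Promoter windows ran from 250 bases before to 50 after each start, and printed ones came from RefSeq, which held 8 of 8 genes looked up. Wilson 95% intervals cover counting only. Python 3.11.15, numpy 2.4.6, scipy 1.17.1 and matplotlib 3.10.9 were used, and the overlap code was tested on 20 sets of simulated data.

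The sets, gene lists and regions were chosen with earlier results of these data known. Named genes were members of lists of at most 20 genes or members in 1 set only, genes that the study names, and the first 5 genes by position in named regions, which were the widest or most joined of their kind. Members of longer lists that are named, and Cdh12, Dlg2, Lsamp, Csmd1, Csmd3, Pcdh15, Dscam, Robo1 and Robo2 among the long genes, were picked from these by their values. The alternatives were domains of at least 50 kb, joining across 20 kb, a common grid, chromosome X, other overlaps and other gene assignments. Not every list member in 1 set only is reported here.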

Additional observations from a re-analysis of the deposited data

Results flagged for a closer look

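The unlabelled set held 1 domain on the mitochondrial genome, which ended at base 16299, whereas the other 4 sets held 0 there, and it was noted because this genome is outside the comparison. On chromosome Y, also outside the comparison, the unlabelled set held 13 domains over 5.43% of the chromosome and mESC DMSO held 6 over 10.1%.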

How the results depend on the processing

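Of 72 values recomputed under the alternatives, 43 counted as the same and 29 moved, and the cause was not tested. Ratios counted as the same within a fixed factor of the main value, even where the order of the median widths turned. Shares and the Jaccard index did so within a Wilson 95% interval on the number of domains or genes. For shares of bases and the Jaccard index, this interval is only a yardstick and does not measure their error. A common grid and a shared length of at least 5 kb moved 0 of 14 and 0 of 4 values. With domains of at least 50 kb, domains with no overlap were 28.1% (unlabelled) and 3.58% (mESC DMSO), mESC DMSO domains holding several unlabelled ones 28.4%, and genes 28.8% in the unlabelled set and 10.1% in it only. After joining across 20 kb, 94.9% of mESC DMSO lay in the unlabelled set, no overlap was 38.6% and 11.1%, domains holding several 15.8% and 10.4%, and genes 31.4% and 22.5%, with 1.97% in mESC DMSO only. With chromosome X, 91.6% of mESC DMSO lay in the unlabelled set, no overlap was 30.0% and 11.0%, and genes in mESC DMSO were 22.3%, with 2.86% in it only. At an overlap of 50%, no overlap was 39.4% and 10.6%, and domains holding several 10.7% and 15.0%. With all annotated genes, 44.5% started in the unlabelled set, 34.2% in mESC DMSO, 13.1% in the first only and 2.90% in the second only. By gene bodies, the shares were 30.8% and 22.2%, with 1.89% in mESC DMSO only. No paired analysis was possible because the sets hold no values per library, and for the same reason no replicate could be left out. The depth behind the calls is unknown.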

Other observations

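On chromosome X, the order of coverage was the reverse of that on chromosomes 1 to 19. The unlabelled set held 463 domains there over 91.0 Mb (53.2%), and mESC DMSO 453 domains over 124 Mb (72.3%). Of the unlabelled bases on this chromosome, 91.4% lay in mESC DMSO, and of the mESC DMSO bases, 67.2% lay in the unlabelled set. No base was shared by 149 mESC DMSO domains (32.9%) and 31 unlabelled domains (6.70%). The methods of the study leave chromosome X out of the scaling of coverage, and the part of this or of the sorted line in the reversal was not tested.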
